A study of Mus musculus with 20 samples.

Results

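Trpm6, Tal2, Slc9a4, Ephb2 and Ush1c are 5 protein-coding genes that were chosen by their counts in BV-2 microglia, as the largest increases of aged, that is long-term cultivated, over young untreated cultures. They are 5 of the 55487 genes in the count matrix, and all 5 were among the 12799 genes that passed a filter on low counts. BV-2 is an immortalised mouse microglial cell line, labelled here as wild type (WT) and of brain origin, and every culture was grown in DMEM with FBS. The 4 groups were young and aged BV-2 cells, each either left untreated or exposed to bacterial lipopolysaccharide (LPS, 100 ng/ml) for 6 h, with 5 cultures per group carrying batch numbers 1 to 5. Aged cells are cells of the same line kept in culture for a long period, so age here means time in culture and not the age of an animal. The sources describe no separately aged lines, and cultures of 1 age may therefore descend from 1 aged population, in which case p-values measure the spread between cultures only.

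The 5 genes belong to unrelated families. Trpm6 encodes a magnesium-permeable TRPM channel fused to a kinase, known for magnesium uptake in kidney and intestine. Its close relative Trpm7 is the form found in most cells. Tal2 encodes a basic helix-loop-helix (bHLH) transcription factor of the TAL/LYL family, which binds E-box sequences as a heterodimer with E proteins such as the product of Tcf3 and is known for its activation in T-cell leukaemia and for a role in midbrain development. Slc9a4 encodes NHE4, a sodium/proton exchanger known from stomach and kidney epithelium. Ephb2 encodes a receptor tyrosine kinase for B-class ephrins, known for axon guidance, synapse formation and sorting of cells at borders. Ush1c encodes harmonin, a PDZ scaffold protein of hair cell stereocilia and of the brush border, mutated in Usher syndrome. Microglia, the macrophages of the brain, respond to LPS through Toll-like receptor 4 with a broad change in transcription.

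Coordinates are on GRCm38. Trpm6 (ENSMUSG00000024727) lies on the plus strand at chr19:18749983-18892511. Tal2 (ENSMUSG00000028417) is on the plus strand at chr4:53779705-53788712. Slc9a4 (ENSMUSG00000026065) is on the plus strand at chr1:40580081-40630725. Ephb2 (ENSMUSG00000028664) is on the minus strand of the same chromosome as Tal2, at chr4:136647539-136835988. Ush1c (ENSMUSG00000030838) is on the minus strand at chr7:46195350-46238503. Annotated genes that overlap them held at most 16 counts each over all 20 libraries, the highest being Gm9860 in Ush1c.

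Promoter sequences are shown because the 5 genes were chosen for moving in the same direction, so that a reader can see what their upstream regions hold. RefSeq (GRCm38.p6) gave the 250 bases before the start of Trpm6, Tal2, Ephb2 and Ush1c. The first 3 are printed 5′ to 3′ along the gene's own strand, and capitals mark every match, on either strand, to one of the motifs searched.
Trpm6, chr19:18749480-18749729, plus strand: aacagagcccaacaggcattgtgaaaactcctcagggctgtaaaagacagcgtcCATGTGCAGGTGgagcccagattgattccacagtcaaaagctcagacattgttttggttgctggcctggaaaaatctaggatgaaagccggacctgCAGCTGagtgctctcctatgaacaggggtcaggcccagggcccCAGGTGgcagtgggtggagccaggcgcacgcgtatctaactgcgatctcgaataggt
Tal2, chr4:53779451-53779700, plus strand: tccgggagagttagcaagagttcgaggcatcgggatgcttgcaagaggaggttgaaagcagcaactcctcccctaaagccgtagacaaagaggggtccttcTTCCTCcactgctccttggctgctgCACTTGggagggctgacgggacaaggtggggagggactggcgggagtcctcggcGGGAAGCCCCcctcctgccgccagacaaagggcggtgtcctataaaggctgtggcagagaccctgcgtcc
Ephb2, chr4:136836013-136836262, minus strand: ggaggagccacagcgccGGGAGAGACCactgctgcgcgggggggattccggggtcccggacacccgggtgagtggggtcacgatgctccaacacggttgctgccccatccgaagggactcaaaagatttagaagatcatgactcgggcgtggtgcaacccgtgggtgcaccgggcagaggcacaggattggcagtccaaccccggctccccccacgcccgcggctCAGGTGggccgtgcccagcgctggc
The motifs were the E-box CANNTG, its narrower form CAGNTG (every match of which is also a CANNTG match), the PU.1 core GAGGAA, AP-1 TGANTCA, NF-kB (GGGA and CC with 4 bases between), ISRE (GAAA and GAAA with 2 bases between) and CRE TGACGTCA. Trpm6 held 4 CANNTG matches, 3 of them CAGNTG. Tal2, Ephb2 and Ush1c held 1 CANNTG match each, which was CAGNTG in Ephb2 and Ush1c but not in Tal2. Of the 32851 mouse promoter windows of the same length, 66.2% held CANNTG and 44.8% CAGNTG, so an E-box is a common feature of such windows. The NF-kB letters occurred 1 time each in Tal2, Ephb2 and Ush1c (17.6% of all windows) and the PU.1 core 1 time in Tal2 (23.3%). AP-1, ISRE and CRE letters, which 6.75%, 2.98% and 1.55% of all windows hold, were in none of the 4 windows. The count of CpG pairs was 7 in Trpm6, 11 in Tal2, 20 in Ephb2 and 7 in Ush1c against a median of 6.

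Depth was similar across the series, with 11371508 to 16829292 counts assigned to genes per library. Mitochondrial transcripts took 0.517% to 1.30% of counts. All 12 microglia markers examined passed the filter, and Csf1r, the receptor for the growth factor that microglia need, had group means of 631 to 857 CPM (gene counts scaled to a common library size) in the 4 groups, while Cx3cr1 and P2ry12, which mark resting microglia in the brain, stayed at or under mean levels of 1.05 and 1.18 CPM. Of 16 epithelial markers, included because 3 of the 5 genes are best known from epithelium, none passed the filter, 15 never exceeded 3 counts in a library and 9 were at 0 in all libraries, and their summed level was 0.0690 to 0.769 CPM per library. The summed markers of neurons, astrocytes and fibroblasts reached at most 0.552, 1.55 and 0.129 CPM in any library. Those of oligodendrocytes summed to 15.5 to 23.2 CPM, mostly Cnp, and those of endothelium to 66.2 to 112 CPM, mostly Kdr, which was lower in aged LPS-treated cells (log2 fold change −0.21, adjusted p = 0.0172, edgeR), while Mog, Cldn5 and Tek of these lists were at 0 in all libraries. Of the 12 microglia markers, 5 were lower and 1 was higher in aged than in young LPS-treated cultures (15.0% and 14.0% of all tested genes), with Aif1 lowest (log2 fold change −1.27, SE 0.19, edgeR adjusted p = 2.392e-05), and the ranges of their summed level overlapped (2894 to 4111 CPM aged, 3313 to 4657 CPM young). Whether these differences have a part in the results on the 5 genes was not tested.

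The library sizes behind each CPM were scaled with the trimmed mean of M-values (TMM), and n = 5 cultures per group throughout. Trpm6 was read at few counts in young untreated cultures, at 1.03, 0.831, 0.906, 0.659 and 1.06 CPM in batches 1 to 5, which is 10 to 16 counts per library. In aged untreated cultures Trpm6 stood at 7.96, 8.81, 8.68, 9.34 and 5.79 CPM, 87 to 170 counts. The lowest aged culture was thus well above the highest young one.

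Tal2 also had low counts in young cells, with 0.897, 0.639, 1.27, 0.923 and 0.932 CPM in young untreated cultures. Its aged untreated values were 7.83, 7.94, 6.28, 9.06 and 9.12 CPM. Both genes therefore went from 10 to 21 counts in a young library to 87 or more in an aged one.

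Slc9a4 read 2.62, 2.62, 1.39, 1.98 and 1.66 CPM in young and 6.14, 7.27, 7.71, 6.65 and 6.19 CPM in aged untreated cultures. Ephb2 read 8.69, 7.93, 6.82, 7.05 and 5.66 CPM in young and 22.0, 24.8, 19.5, 22.9 and 22.0 CPM in aged untreated cultures. Ush1c, also the most abundant of the 5 per length of exons, read 19.1, 18.8, 17.1, 23.9 and 26.3 CPM in young and 60.6, 53.9, 59.1, 53.2 and 59.0 CPM in aged untreated cultures. For all 3 genes every aged untreated culture lay above every young one.

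**Figure D1:**
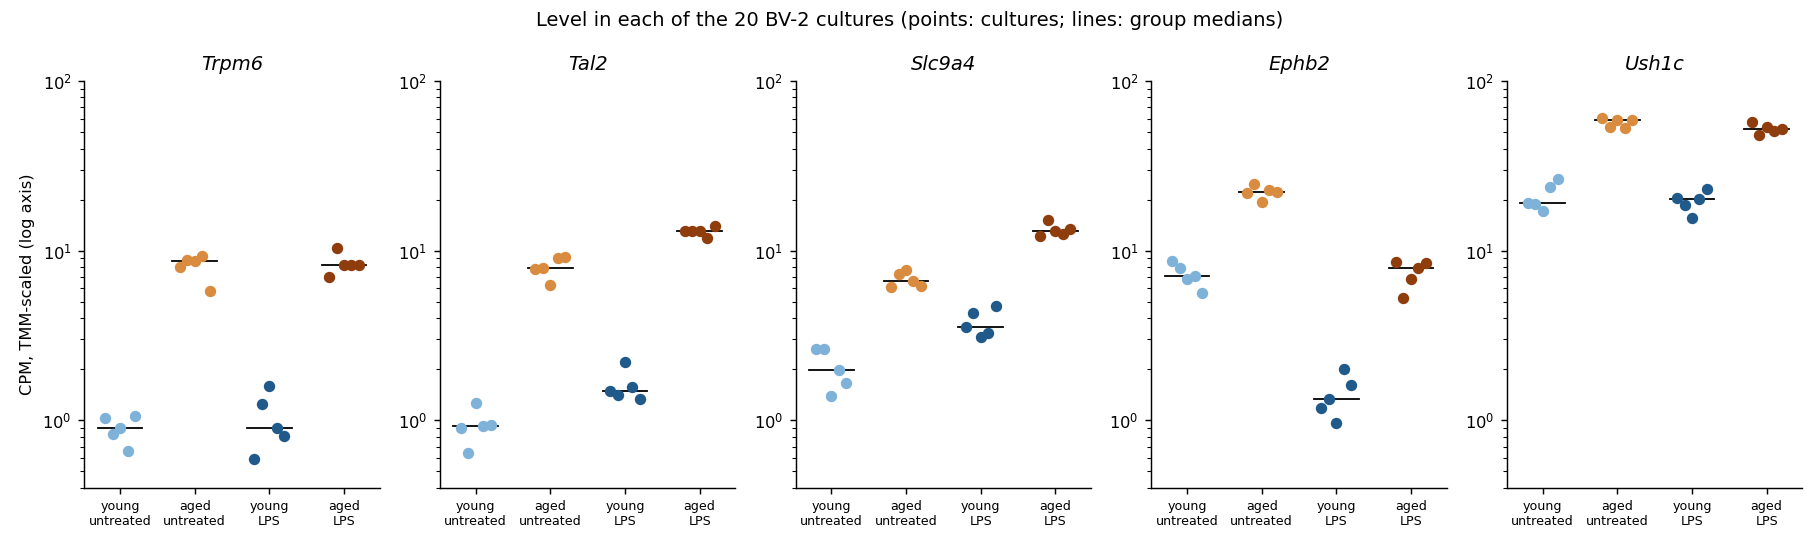
CPM on a log axis for Trpm6, Tal2, Slc9a4, Ephb2 and Ush1c in each of the 20 cultures, with group medians as lines. All 5 genes are higher in aged than in young cultures in both treatments, Ephb2 drops with LPS in both ages, and the aged LPS cultures of Ephb2 (5.28 to 8.57 CPM) overlap with the young untreated cultures (5.66 to 8.69 CPM).

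The log2 fold changes of aged over young untreated cultures were 3.17 for Trpm6, 3.09 for Tal2, 1.73 for Slc9a4, 1.62 for Ephb2 and 1.44 for Ush1c, or about 8.98, 8.53, 3.31, 3.07 and 2.72 times the young level. These values chose the genes and are a description, as is the fact that each difference was above 0 within all 5 batches. As background, 3.71% of the tested genes were higher in aged untreated cultures at an adjusted p below 0.05, and 3.76% had every aged culture above every young one. The edge of the selection depends on how low expression is handled. With a mean log2 CPM of at least 1 over the 10 untreated libraries, Tox2 (log2 fold change 1.73) and Thbs3 (1.55) also ranked above Ush1c, which was then at place 7. With that mean taken over all 20 libraries the 5 genes took places 1 to 5 and Mcoln3 (1.29) place 6. Gng8 (2.52), Adgrg3 (2.04) and Gdf11 (1.83) had larger log2 fold changes than Slc9a4 but mean levels below the limit.

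The LPS-treated cultures were not part of the difference that chose the genes, and they gave a second comparison of aged with young cells. They share their line and batch numbers with the untreated cultures, and the 5 genes took places 1 to 5 only with a limit on mean level that included them. Trpm6 measured 0.593, 1.24, 1.59, 0.895 and 0.811 CPM in young and 7.02, 10.4, 8.21, 8.28 and 8.25 CPM in aged LPS-treated cultures. Aged cells held about 7.97 times the young level (log2 fold change 3.00, SE 0.19, adjusted p = 5.155e-10, edgeR quasi-likelihood test with Benjamini-Hochberg adjustment over 12799 genes). The young values rest on 6 to 23 counts, with a coefficient of variation of 38.2% against 14.5% for the aged values.

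Tal2 measured 1.48, 1.41, 2.21, 1.57 and 1.33 CPM in young and 13.0, 13.1, 13.1, 11.9 and 13.9 CPM in aged LPS-treated cultures, the latter the tightest group of any of the 5 genes (coefficient of variation 5.40%). The log2 fold change was 3.01 (SE 0.14, adjusted p = 9.923e-12, edgeR), or about 8.03 times the young level. Young and aged values were far apart in every batch.

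Slc9a4 measured 3.56, 4.31, 3.10, 3.28 and 4.72 CPM in young and 12.2, 15.3, 13.1, 12.5 and 13.4 CPM in aged LPS-treated cultures. It was about 3.49 times higher in aged cells (log2 fold change 1.80, SE 0.14, adjusted p = 7.295e-09, edgeR). The groups did not overlap.

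Ephb2 measured 1.19, 1.33, 0.966, 2.01 and 1.62 CPM in young LPS-treated cultures, on 12 to 27 counts, and 8.57, 5.28, 6.83, 7.90 and 8.46 CPM in aged ones. Its log2 fold change was 2.37 (SE 0.18, adjusted p = 6.117e-09, edgeR), or about 5.17 times the young level. Here too every aged culture was above every young one.

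Ush1c measured 20.6, 18.5, 15.5, 20.1 and 23.2 CPM in young and 57.7, 47.8, 53.7, 50.5 and 51.8 CPM in aged LPS-treated cultures. The log2 fold change was 1.42 (SE 0.10, adjusted p = 3.368e-09, edgeR), about 2.68 times the young level. With 208 or more counts in every library, Ush1c was the gene measured with the smallest standard error.

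All 5 genes were thus higher in aged LPS-treated cells, where 29.0% of the 12799 tested genes were called, 14.0% higher and 15.0% lower. The share of calls that were higher was 48.3%, and 70.1% when library sizes alone were used for scaling. Every aged LPS-treated culture exceeded every young one for all 5 genes, which held for 6.69% of tested genes, and an exact two-sided permutation test gave p = 0.007937 for each, the smallest that 5 against 5 cultures allow. Within batches the log2 difference was above 0 in 5 of 5 batches for each gene, with ranges of 2.28 to 3.29 for Trpm6, 2.50 to 3.26 for Tal2, 1.48 to 2.03 for Slc9a4, 1.89 to 2.72 for Ephb2 and 1.15 to 1.78 for Ush1c. Among genes of mean log2 CPM of at least 1 in the LPS-treated cultures, the 3 largest increases of aged over young were Tal2, Trpm6 and Gm16201 (2.73). Ephb2 was at place 4, Slc9a4 at place 5 and Ush1c at place 9. Trpm6, Tal2 and Ephb2 met this limit only through their aged cultures, as their young means were 1.03, 1.60 and 1.42 CPM. Without the limit, the places among all 12799 tested genes were 3 for Tal2, 4 for Trpm6, 7 for Ephb2, 14 for Slc9a4 and 30 for Ush1c. In bulk RNA a larger number of expressing cells and more RNA per expressing cell cannot be told apart.

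**Figure D2:**
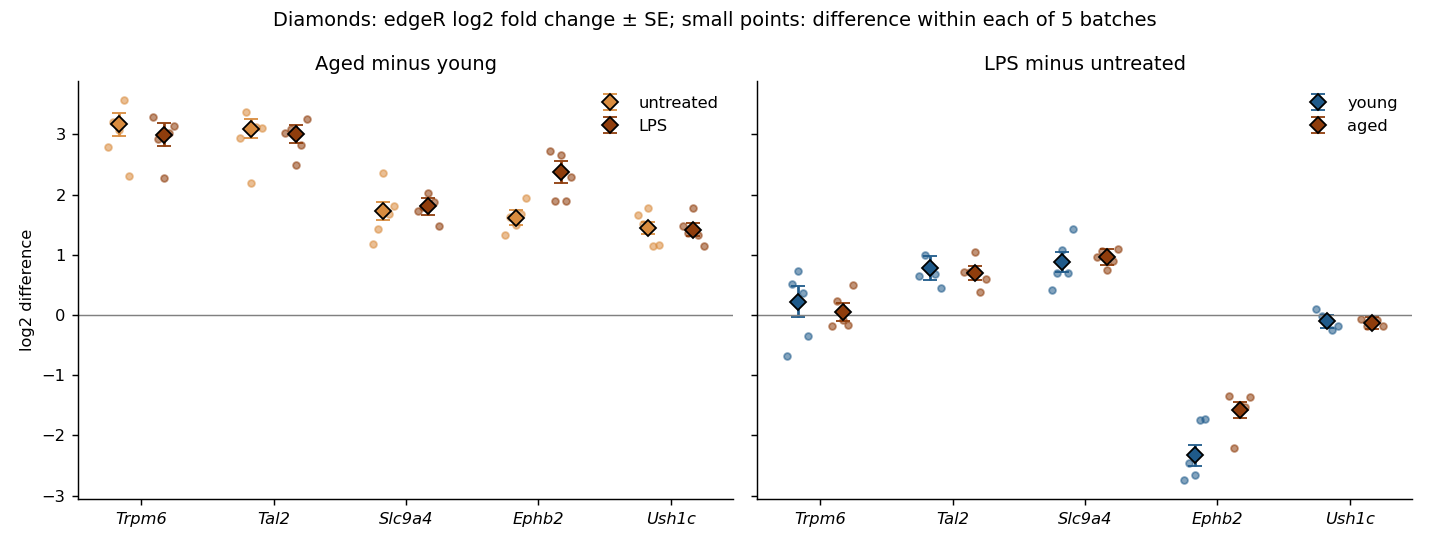
Log2 differences (y axis) for the 5 genes, aged minus young on the left and LPS minus untreated on the right. Diamonds are edgeR log2 fold changes with SE bars, small points the differences within each of the 5 batches; in the left panel all points are above 0, and in the right panel only the points of Ephb2 are far below 0.

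LPS itself moved the 5 genes in 3 ways. Tal2 and Slc9a4 rose, Ephb2 fell, and Trpm6 and Ush1c did not pass the test. The response was tested as the mean of the LPS responses of young and aged cells. In this contrast the difference that chose the genes cancels out. The limit on mean level does not cancel, since places 1 to 5 needed a mean that included the LPS-treated cultures. Tox2 and Thbs3 had mean log2 CPM of 1.41 and 1.46 in untreated cultures but 0.67 and 0.94 over 20 libraries, and missed the limit. The choice thus leaned against genes that LPS lowers. The mean LPS response was called for 69.9% of all tested genes (34.3% higher, 35.7% lower), and the 3 calls among 5 genes are to be read against that share.

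Tal2 rose by a log2 fold change of 0.74 (SE 0.12, adjusted p = 5.718e-06, edgeR), about 1.67 times. Within age the log2 change was 0.78 in young and 0.69 in aged cells. LPS-treated cultures lay above untreated ones in both ages without overlap. The share of all tested genes with such separation by LPS was not counted, here or for the genes below. The mean LPS response was called for 69.9% of them.

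Slc9a4 rose by 0.92 (SE 0.10, adjusted p = 4.981e-08, edgeR), about 1.90 times, with 0.89 in young and 0.96 in aged cells. Its highest levels were therefore in aged LPS-treated cells (13.3 ± 1.21 CPM, SD) and its lowest in young untreated cells (2.06 ± 0.558 CPM). The order of groups, young untreated, young LPS, aged untreated and aged LPS, was the same for Slc9a4 and Tal2, and no neighbouring groups in that order overlapped.

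Ephb2 changed by −1.96 on the log2 scale (SE 0.11, adjusted p = 2.769e-13, edgeR), about 3.88-fold lower. The log2 change was −2.33 in young and −1.58 in aged cells, a difference of 0.75, given as a description because it contains the cultures that chose the gene. Ephb2 in aged LPS-treated cultures (7.41 ± 1.38 CPM) overlapped with young untreated cultures (7.23 ± 1.15 CPM), while aged untreated cultures (22.2 ± 1.91 CPM) were above all others and young LPS-treated cultures (1.42 ± 0.407 CPM) below.

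For Trpm6 the mean log2 change with LPS was 0.13 (95% interval −0.16 to 0.43, adjusted p = 0.430, edgeR) and for Ush1c −0.12 (−0.26 to 0.03, adjusted p = 0.158, edgeR). Untreated and LPS-treated cultures of an age overlapped for both genes. With library sizes alone as scaling, which moves the median mean LPS response of all genes from −0.01 to −0.20 (log2), Ush1c was called lower at −0.31 (adjusted p = 6.556e-04, edgeR) and the uncalled value of Trpm6 turned to −0.05 (adjusted p = 0.761, edgeR).

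Over the 20 libraries the log2 CPM of Trpm6, Tal2 and Ush1c followed each other, with Pearson's r of 0.960 for Trpm6 and Tal2, 0.932 for Trpm6 and Ush1c and 0.909 for Tal2 and Ush1c. Ephb2 was least like Slc9a4 (r = 0.302), the LPS responses of the pair having opposite signs. These correlations are across libraries that differ in age and treatment, and they describe the group pattern. All of these genes were chosen for being higher in aged untreated cultures, which are among the 20 libraries. A high r between them is therefore in part a result of the choice and is no separate finding. After subtracting group means, r was 0.257 for Trpm6 and Tal2, −0.522 for Trpm6 and Ush1c and −0.395 for Tal2 and Ush1c. For Tal2 and Slc9a4 it was −0.731. The high r of Trpm6, Tal2 and Ush1c was thus not seen within groups.

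The tested genes whose log2 CPM was most like that of Trpm6 over the 20 libraries were Cisd3 (r = 0.970), Mcoln3 (0.961) and Dab2ip (0.953). The same 3 genes led for Ush1c (0.960, 0.956 and 0.946), and Dab2ip (0.964), Cisd3 (0.955) and the cyclin gene Ccnd2 (0.935) led for Tal2. Mcoln3, which encodes an endolysosomal cation channel, had group means of 73.7 CPM in young untreated, 180 in aged untreated, 63.7 in young LPS and 199 in aged LPS-treated cultures. For Slc9a4 the list was Prmt5 (0.915), Klhl12 (0.903) and Polr2m (0.901), and for Ephb2 it was Map4k1 (0.974), Nt5dc2 (0.965) and Dnph1 (0.960). Map4k1, a kinase gene of blood cells, had the shape of Ephb2 at a smaller size, with 44.2, 70.1, 24.7 and 46.8 CPM in the same order of groups. These lists rank genes by likeness to genes chosen for their rise with age, over libraries that include the untreated cultures. They therefore favour genes with a similar difference between ages, and are a description.

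In LPS-treated cells some genes of the families were higher in aged cultures, as the 5 were, and others were not. In untreated cells the median log2 fold changes of the family lists, without the 5, ran only from −0.08 to 0.01. Lists of related genes held 45 tested genes besides the 5, of which 15 were called higher and 8 lower in aged than in young LPS-treated cells, beside 14.0% higher and 15.0% lower of all tested genes. The calls of higher were thus above the share of all tested genes, and those of lower were near it. The same shares stand beside the counts of each family below. No test of a list as a set was run. Without the cultures of batch 2 the counts were 9 and 5, and with library sizes alone 5 were lower. Levels below are CPM per kb of exons wherever genes are compared with each other.

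Among TRPM channels, Trpm7 had a mean of 23.1 CPM per kb in young untreated cells against 0.117 for Trpm6. In aged untreated cells Trpm6 reached 1.05 CPM per kb beside 23.9 for Trpm7, so the ubiquitous channel remained far more abundant. Of 4 other TRPM genes tested, none was higher and 1 was lower in aged LPS-treated cells (2 with the batch numbers as a replicate block), namely Trpm4, a calcium-activated cation channel (log2 fold change −0.66, SE 0.17, adjusted p = 6.204e-03, edgeR). The log2 fold change of Trpm7 was 0.10 (SE 0.05, adjusted p = 0.183, edgeR).

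Of 15 other magnesium transport genes tested, Trpm7 included, 7 were higher and none lower, with a median log2 fold change of 0.20 against 0.01 over all tested genes. They included Cnnm3 (0.57, adjusted p = 4.417e-04), Cnnm2 (0.48, adjusted p = 5.251e-04) and Cnnm4 (0.40, adjusted p = 3.638e-03), which encode membrane proteins linked to magnesium efflux (all edgeR). Nipal3 (0.45, adjusted p = 0.0265, edgeR) lost its call without batch 2, 3 or 4, and without batch 2 the list had 4 genes higher. In untreated cells the list's median log2 fold change was −0.05, and the values of Cnnm3 (−0.24), Cnnm2 (0.06) and Cnnm4 (−0.18) were small next to that of Trpm6.

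Of the 12 other TAL/LYL factors and partners tested, 5 were higher and 3 lower in aged LPS-treated cells, the latter count being 1 without batch 1, without batch 2 or with library sizes alone. Lyl1, the most abundant TAL/LYL gene at 18.7 to 81.6 CPM per kb in the 4 groups, was higher (log2 fold change 0.68, SE 0.11, adjusted p = 4.340e-05, edgeR). The E protein gene Tcf3 (0.32, adjusted p = 1.482e-04) and the adaptor gene Ldb1 (0.32, adjusted p = 5.665e-04) were also higher, while Id3, whose product binds E proteins and keeps them off DNA, was lower (−0.42, adjusted p = 0.0153, all edgeR), a call lost without batch 1. In untreated cells the values of Lyl1 (0.21), Tcf3 (−0.05), Ldb1 (0.09) and Id3 (−0.28) were small next to that of Tal2. Lmo2, a bridging protein of TAL complexes, was the most abundant gene of the list (83.6 to 147 CPM per kb), with a log2 fold change of 0.10 (adjusted p = 0.420, edgeR). Tal2 itself went from 0.538 to 4.38 CPM per kb in these cultures and stayed below its paralog Tal1 (8.24 and 9.25 CPM per kb).

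Of 7 other sodium/proton exchangers and regulators tested, 1 was higher (2 with library sizes alone) and 4 were lower in aged LPS-treated cells. Slc9a5 was higher (log2 fold change 0.85, SE 0.13, adjusted p = 4.519e-05, edgeR). Slc9a7 (−0.53, adjusted p = 3.762e-03) and Slc9a8 (−0.31, adjusted p = 2.807e-03) were among the lower ones (both edgeR), the call on Slc9a7 being lost without batch 3. In untreated cells the values were 0.44 for Slc9a5, −0.59 for Slc9a7 and −0.15 for Slc9a8. The regulators Slc9a3r1 and Chp1 were the most abundant of the list, at 29.6 to 35.2 and 25.5 to 29.8 CPM per kb. Slc9a4 went from 0.832 CPM per kb in young to 2.91 in aged LPS-treated cells, still under Slc9a8 at 11.2 and 9.04.

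Of 6 other Eph receptor and ephrin genes tested, 2 were higher and none lower in aged LPS-treated cells, namely the ligands Efna2 (log2 fold change 0.91, adjusted p = 0.0258, edgeR) and Efnb1 (0.53, adjusted p = 0.0192, edgeR). Both are low, and without batch 1 or batch 2 no gene of this list was called higher, whereas 5 were with library sizes alone. In untreated cells the log2 fold change of aged over young was 0.73 for Efna2 and −0.07 for Efnb1. LPS lowered 5 of the 6 in the mean of both ages, where 35.7% of all tested genes were lower, and the fall of Ephb2 (−1.96) stood beside a list median of −0.91, while the median of all tested genes was −0.01. Ephb2 had the highest level per length of this family in aged untreated cells (1.76 CPM per kb), whereas in young untreated cells it was at 0.574 beside 1.60 for Ephb4, a receptor for ephrin-B2.

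Only Myo7a and Whrn of the 15 other Usher and microvillar adhesion genes passed the filter, and 12 of the 16 listed genes never exceeded 3 counts. Myo7a, a myosin that partners with harmonin in hair cells, was at 18.4 to 21.4 CPM per kb in the 4 groups (aged over young with LPS, log2 fold change 0.08, adjusted p = 0.423, edgeR), and Whrn was at 1.42 to 2.96 CPM per kb (0.09, adjusted p = 0.526, edgeR). Ush1c went from 5.47 to 14.9 CPM per kb in untreated cells, nearing the level of Myo7a.

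**Figure D3:**
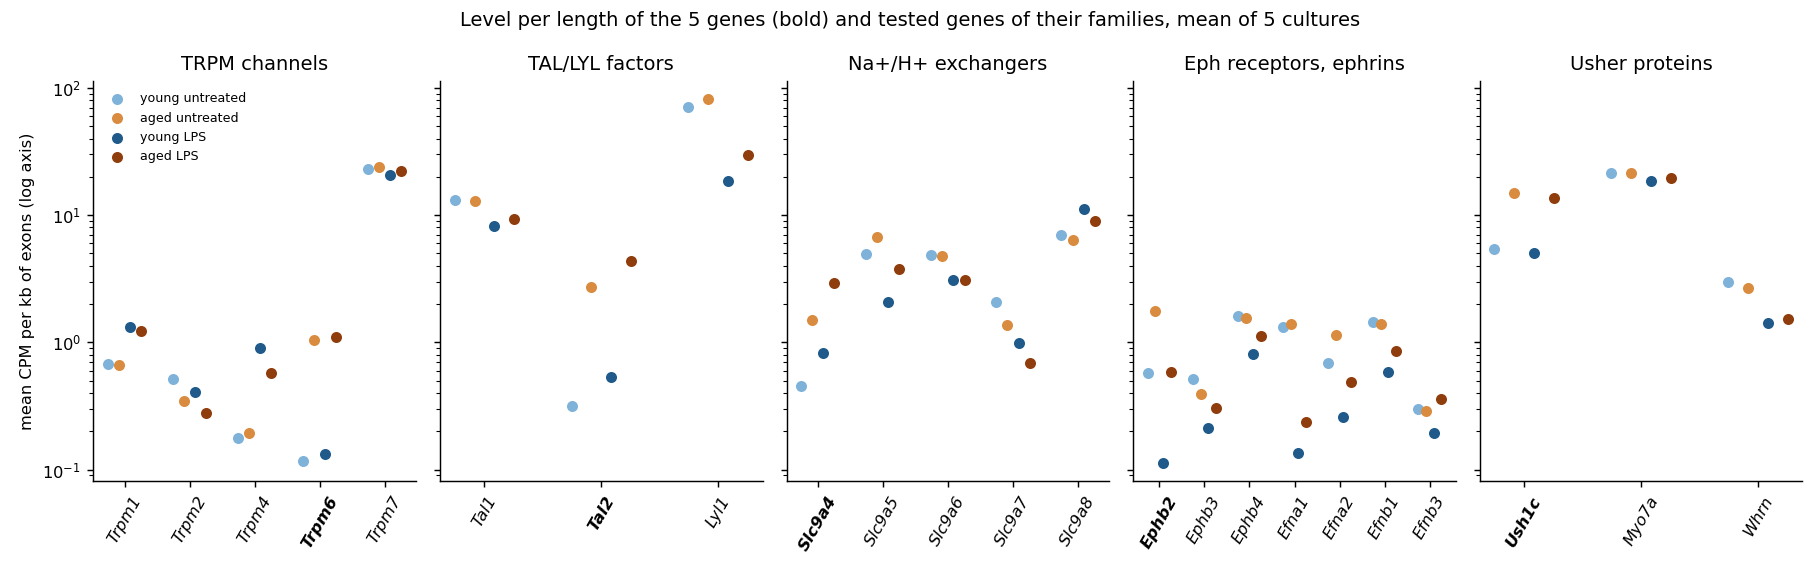
Mean level per length (CPM per kb of exons, log axis) of the 5 genes, in bold, and of tested genes of their families, in the 4 groups. Trpm6 climbs from 0.117 to 1.05 CPM per kb while Trpm7 stays above 20 in all groups, and Ephb2 in aged untreated cells tops its family.

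The genes next to the 5 on the chromosomes were examined as well, 3 tested genes on each side. Of these 30 neighbours, 3 were called higher and 6 lower in aged LPS-treated cells, near the shares of all tested genes (14.0% and 15.0%), and their log2 fold changes ran from −1.11 to 0.33 with a median of 0.03. No neighbour reached the smallest increase of the 5 genes, 1.42 for Ush1c. That increase was at place 30 of 12799 tested genes, so almost any 30 genes would fall short of it. The nearest tested neighbours of Trpm6 were D030056L22Rik (0.20, adjusted p = 0.0636, edgeR) and Anxa1, encoding annexin A1 (−0.96, adjusted p = 3.074e-03, edgeR). On one side of Tal2 the nearest tested gene was Tmem38b (0.01, adjusted p = 0.932, edgeR).

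Slc9a4 sits beside a cluster of interleukin-1 receptor family genes, of which the nearest, Il18rap, had a log2 fold change of 0.22 (SE 0.35, adjusted p = 0.690, edgeR), and its neighbour on the other side was Mfsd9 (0.33, adjusted p = 0.195, edgeR). Ephb2 lies between Kdm1a, a histone demethylase gene (0.04, adjusted p = 0.517, edgeR), and the complement C1q genes. C1qb moved opposite to Ephb2, at −1.11 (SE 0.16, adjusted p = 1.705e-05, edgeR) with LPS and −1.15 untreated, and C1qc was lower too (−0.84, adjusted p = 1.594e-04, edgeR). Gm45487 (−0.18, adjusted p = 0.717, edgeR) and Sergef (−0.05, adjusted p = 0.726, edgeR) flank Ush1c.

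**Figure D4:**
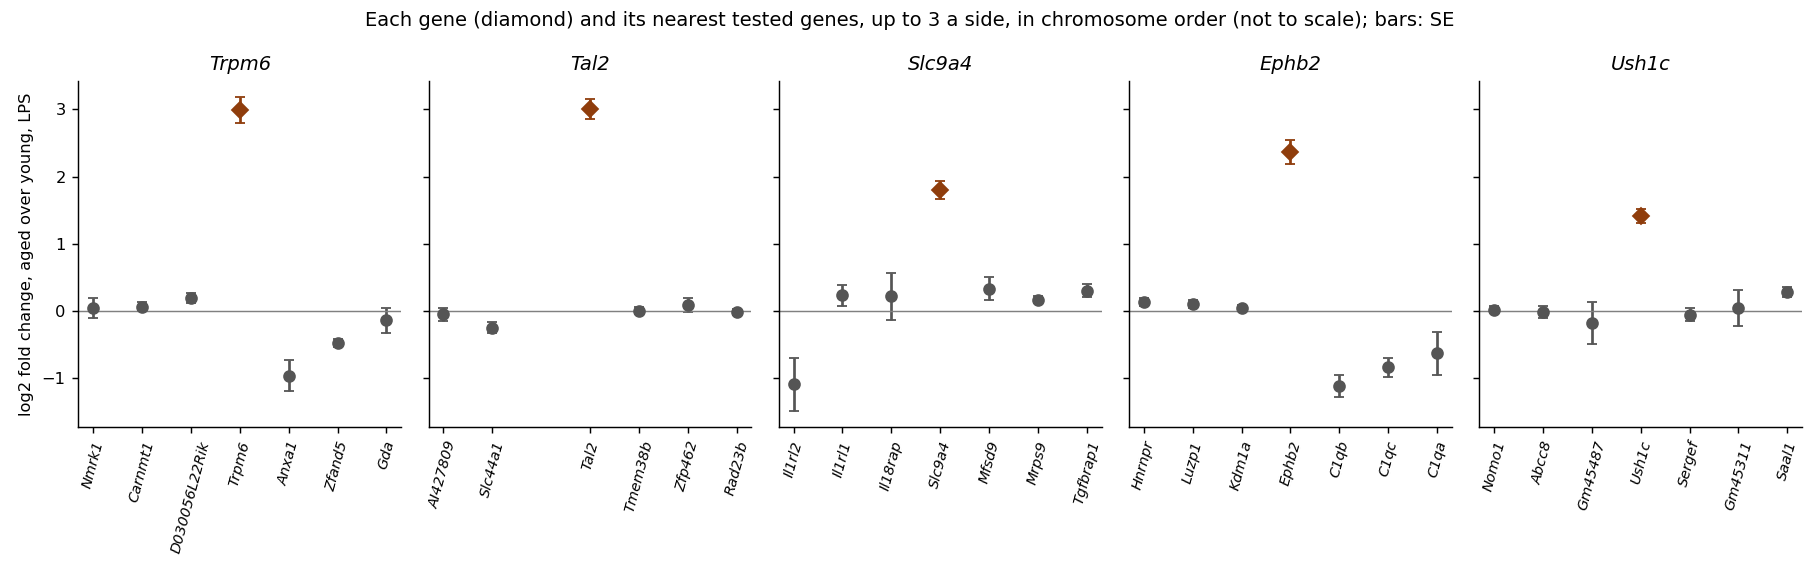
Log2 fold change of aged over young LPS-treated cells (y axis, bars are SE) for each of the 5 genes (diamonds) and its nearest tested genes, up to 3 on each side (circles), placed by order and not by distance. The diamonds lie between 1.42 and 3.01, the circles between −1.11 and 0.33.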

How the data were processed

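RNA was poly(A)-selected, made into stranded libraries and sequenced from 20 cultures. Per the submitters' processing notes, FastQC 0.11.8, STAR 2.6.1d, featureCounts 1.5.1 and DESeq2 were used, with reads mapped to GRCm38, and the authors deposited raw counts per gene. Strand, multimapping and overlap settings of the counting are not given in the sources used here. From these counts edgeR 4.0.16 (R 4.3.3) fitted 1 quasi-likelihood model to all 20 libraries with group as the term, TMM scaling and filterByExpr. A gene was called at a Benjamini-Hochberg adjusted p below 0.05 over 12799 genes. Symbols and coordinates came from GENCODE M21, which matched 55227 of 55487 identifiers. Lengths are of merged exons. The 5 genes, the gene lists, the tests and the rule for naming genes (top list members by fold change or level per length, most correlated genes, nearest neighbours, edges of the ranking) were chosen with earlier results of these data known. C1qc was named after its value was seen. Batch numbers are shared by the 4 groups in the labels, and within an age, cultures of a batch with and without LPS deviated together from their group means (mean r = 0.276 young, 0.260 aged), while between ages they did so little (mean r 0.0425 to 0.111). No replicate libraries were duplicates (chi-square per degree of freedom 2.37 to 25.8 over 40 pairs). Scripts were tested on simulated data. Alternatives were a batch block, other scalings and filters, fewer groups, DESeq2 1.42.0 and leaving out each batch. A block in DESeq2 and the ranking by a mean over 20 libraries were added after seeing the data. Values of 2 related or neighbouring genes are not reported here.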

Additional observations from a re-analysis of the deposited data

Results flagged for a closer look

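In 45 tested genes related to the 5, the age difference was compared between LPS-treated and untreated cells by an interaction term (edgeR, adjusted over all genes), and 4 passed, while 6.39% of all tested genes did. The log2 fold change of aged over young was higher with LPS than without by 0.81 for Cnnm3 (adjusted p = 1.553e-03), by 0.58 for Cnnm4 (adjusted p = 0.0103), by 0.89 for Ephb3 (adjusted p = 0.0403) and by 0.37 for Tcf3 (adjusted p = 4.777e-03). Cnnm3 fell with LPS from 32.8 to 9.41 CPM in young and from 27.8 to 14.1 CPM in aged cells, Cnnm4 from 24.7 to 14.7 and from 21.9 to 19.4 CPM, and Tcf3 from 85.6 to 48.8 and from 82.6 to 61.0 CPM. Ephb3 went from 3.39 to 1.42 CPM in young and from 2.601 to 2.03 CPM in aged cells, levels at which few reads carry the difference. No culture was flagged as apart from its group in 20 checks, 5 genes in each of 4 groups. The rule flagged only a gap that took up most of the group's range, which with 5 cultures finds extreme cases only. Trpm6 in the aged untreated culture of batch 5 (5.79 CPM, the others 7.96 to 9.34) was not flagged.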

How the results depend on the processing

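Over 15 results and up to 14 alternatives each, 184 of 188 values kept their call or stayed within 1.5 times the count, and no called value changed sign. The uncalled mean LPS response of Trpm6 did, from 0.13 to −0.05 with library sizes alone. Of the 188 values, 14 only re-counted how many of the 5 genes led the untreated ranking that chose them. That count was 4 in the main fit and 3 to 5 in the alternatives, and it is a description. The call of all 5 genes as higher in aged LPS-treated cells held under all 13 alternatives, except that Trpm6 could not be tested where each library needed 10 counts, leaving 4. Their log2 fold changes ranged over 2.92 to 3.23 (Trpm6), 2.91 to 3.16 (Tal2), 1.74 to 1.90 (Slc9a4), 2.27 to 2.51 (Ephb2) and 1.33 to 1.5001 (Ush1c). The replicate block in edgeR (log2 fold change of Trpm6 3.00 and Tal2 3.01) raised the TRPM genes called lower from 1 to 2 and the related genes called higher and lower to 17 and 10, and no named gene lost its call. With library sizes alone the mean LPS response of Ush1c was called at −0.31 (adjusted p = 6.556e-04, edgeR), and the related genes called lower fell to 5 from 8. Leaving out 1 batch gave 9 to 14 related genes called higher, the low value without batch 2, and 5 to 7 called lower. Over all genes, calls of higher numbered 960 without batch 2 and 3167 with library sizes alone, against 1794, so those counts depend on batch 2 and on scaling, the cause not being tested. Low counts limit Trpm6, Tal2 and Ephb2 in young LPS-treated cells, where 6 to 32 counts stand behind a value. Leaving out each batch removes 4 libraries at a time.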
